A study of Homo sapiens with 8 samples.

Results

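The interleukin 6 (IL6) family described here comprised 9 genes, the ligands IL6, IL11, LIF and CLCF1 and the receptor chains IL6R, IL6ST, LIFR, OSMR and IL11RA. They were taken by gene symbol from the 60558 genes of the expression files, and 8 of the 9 reached the level needed for testing, as did 14206 genes in all. The cells were 2D human intestinal epithelial cells (hIECs) derived from H9, a line of human embryonic stem cells, so that all groups shared 1 line. RNA sequencing covered 4 groups of 2 libraries each. Normal hIECs received no cytokine and no particulate matter 10 (PM10, coarse airborne particles), and normal hIECs with PM10 received PM10 at 100 μg/ml. Inflamed hIECs were treated with 50 ng/ml interferon γ (IFNγ) and 50 ng/ml tumor necrosis factor α (TNFα), and inflamed hIECs with PM10 received both cytokines and PM10. The cytokines were present for 10 days and PM10 for the last 7 days, per the study's methods. Nothing in the sources used here states that the 2 libraries of a group came from separate cultures, so the p-values measure the spread between these libraries, which may be technical. Levels are FPKM, counts of sequenced fragments scaled to transcript length and to the size of the library.

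Members of this family signal through gp130, the shared chain that IL6ST encodes. IL6 and IL11 first bind their own chains, IL6R and IL11RA, and then engage gp130, whereas LIF joins gp130 to LIFR, and oncostatin M joins it to OSMR or LIFR. Kinases of the JAK group bound to the receptors phosphorylate STAT3, and SOCS3 limits the signal by binding gp130. In the intestine the family is known for its roles in epithelial repair and inflammation, and stromal cells are a known source of IL6, IL11 and LIF.

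The labelled cell type and treatments were checked before the family was examined. Of 13 intestinal epithelial markers, 6 were listed at 0 in all 8 libraries, namely CDX2, VIL1, MUC2, CHGA, KRT20 and CLDN3. EPCAM did not exceed 0.622 FPKM, and CDH1, the gene of E-cadherin, was above 0 in 1 library alone, at 0.221 FPKM. The most abundant marker of that list was KRT8, at a mean of 378 FPKM in normal hIECs, and the summed level of the list was 644 and 654 FPKM in normal hIECs, 601 and 638 with PM10, 358 and 352 in inflamed hIECs, and 313 and 295 in inflamed hIECs with PM10. All 12 mesenchymal markers were above the minimum, with TAGLN the most abundant, and their sum was 5133 and 5120 FPKM in normal hIECs, 4446 and 4470 with PM10, 5805 and 5879 in inflamed hIECs, and 5142 and 5123 in inflamed hIECs with PM10. These RNA-seq values therefore went against the epithelial label at its defining markers. The study itself reported mRNA and staining of intestinal markers in 2D hIECs, CDX2, MUC2, CHGA and VIL1 among them. The term hIECs is used below as the name the study gave these cells. The 7 neuronal markers, led by STMN2, summed to 192 and 183 FPKM in normal hIECs, 201 and 208 with PM10, 112 and 112 in inflamed hIECs, and 130 and 128 in inflamed hIECs with PM10. Immune markers were low, with 7 of 10 at 0 in every library and sums between 0.333 and 1.83 FPKM (most abundant CD68), and 4 of 6 endothelial markers were at 0, with sums between 2.85 and 5.13 FPKM (most abundant ERG). CD68, a macrophage marker, was at 0.503 and 0.510 FPKM in normal hIECs, 0.308 and 0 with PM10, 0.399 and 0.333 in inflamed hIECs, and 1.11 and 1.83 in inflamed hIECs with PM10. It was the single immune marker tested and rose with PM10 in inflamed hIECs by 0.84 (adjusted p = 0.021) and with cytokines in the presence of PM10 by 1.097 (adjusted p = 0.00107), with an interaction of 1.24 (adjusted p = 0.0319), whereas CD14, CD163, ITGAM and CSF1R were at 0 in every library. PTPRC was at 0.524 and 0.345 FPKM in normal hIECs, 0.310 and 0.253 with PM10, and 0 in all 4 inflamed libraries. NKG7 did not exceed 0.237 FPKM and was also at 0 in all 4 inflamed libraries. The epithelial and neuronal sums were lower in all 4 inflamed libraries than in the normal ones, and the mesenchymal sum was lower with PM10 in both states and higher with cytokines at either PM10 state. The part of these markers in the results was not tested. In bulk RNA, a change in the number of cells of a type cannot be told apart from a change in RNA per cell.

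Genes outside the family were used to check the treatments. All 6 genes listed to check the cytokines rose with them, and GBP5, a guanylate-binding protein induced by IFNγ, went from 0 in the normal libraries to 129 and 128 FPKM. CYP1B1, a target of the aryl hydrocarbon receptor (AhR) that senses polycyclic hydrocarbons, was at 6.91 and 5.95 FPKM in normal hIECs and at 65.7 and 62.8 with PM10, and it was at 37.6 and 35.7 in inflamed hIECs and at 254 in both inflamed libraries with PM10. Of 6 genes listed to check PM10, 4 were tested, and PM10 called all 4 higher in normal hIECs and 2 higher in inflamed hIECs. The normal libraries differed from each other more than those of the other groups, with a median SD between replicates of 0.085 on the log2(FPKM + 1) scale against 0.049 to 0.053, and mitochondrial genes took 17% and 24.2% of their FPKM.

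The upstream sequences of IL6 and IL11 are shown because these ligands moved in opposite directions with PM10 in inflamed hIECs. Both are the 250 bases before the start of the gene in RefSeq (GRCh38.p14), written 5′ to 3′ on the gene's strand, chr7:22726950-22727199 on the plus strand for IL6 and chr19:55370464-55370713 on the minus strand for IL11. GENCODE 44, used for the gene positions given later, starts IL6 further upstream, at position 22725884, so that the IL6 window lies inside its GENCODE span. Capitals mark the matches found in a search of both strands for AP-1 (TGANTCA), C/EBP (TTGCNNAA), GAS, the STAT site (TTCNNNGAA), CRE (TGACGTCA), the AhR core (GCGTG) and NF-kB (by name).
IL6: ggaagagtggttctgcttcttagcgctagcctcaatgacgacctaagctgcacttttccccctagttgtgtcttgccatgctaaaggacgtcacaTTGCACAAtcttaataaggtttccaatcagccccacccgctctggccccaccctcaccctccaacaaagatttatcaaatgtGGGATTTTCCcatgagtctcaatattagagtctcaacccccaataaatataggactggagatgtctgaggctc
IL11: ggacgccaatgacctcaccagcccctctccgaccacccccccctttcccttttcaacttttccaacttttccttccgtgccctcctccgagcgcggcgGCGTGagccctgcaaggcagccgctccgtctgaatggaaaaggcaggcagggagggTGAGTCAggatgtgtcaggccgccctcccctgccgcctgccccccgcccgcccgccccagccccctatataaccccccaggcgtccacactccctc

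In IL6 the capitals were a C/EBP match from 155 to 148 bases before the start and an NF-kB match from 73 to 64 bases before it. In IL11 they were the AhR core from 152 to 148 bases before the start and an AP-1 match from 96 to 90 bases before it, and the matches did not overlap. Of 35116 RefSeq promoters searched over the same length, 5.21% held the NF-kB motif, 9.05% C/EBP, 6.57% AP-1, 6.57% GAS, 1.65% CRE and 32.2% the AhR core. Of the 9 members, 7 had an entry in the promoter table, and LIF and CLCF1 had none. OSMR held a C/EBP match, the 3 entries of LIFR held C/EBP, GAS or AhR core matches, and IL6ST, IL6R and IL11RA held none of these letters in their windows. A match of letters is a description and was not set against any binding data.

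Counts of called members were read against all genes tested. In the limma fit over all genes, cytokines without PM10 called 5 of the 8 tested members, with 4 higher and 1 lower, against 56.2% of all genes tested (25.9% higher and 30.3% lower). With PM10 present in both arms, cytokines called 7 of 8, with 4 higher and 3 lower, against 65.4% of all genes (25.8% higher and 39.6% lower). PM10 in inflamed hIECs called 5 of 8, with 2 higher and 3 lower, against 15.2% of all genes (6.22% higher and 9.02% lower). PM10 in normal hIECs called 3 of 8, with 1 higher and 2 lower, against 9.23% of all genes (5.51% higher and 3.72% lower). The interaction, the test of whether the PM10 difference itself differed between inflamed and normal hIECs, called 4 of 8, with 2 higher and 2 lower, against 6.6% of all genes (2.11% higher and 4.48% lower). The median difference of the 8 members was 0.22 with cytokines without PM10 and -0.11 with PM10 in inflamed hIECs, against -0.03 and -0.01 over all genes tested. The comparisons share libraries and are therefore not independent of each other.

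**Figure D1:**
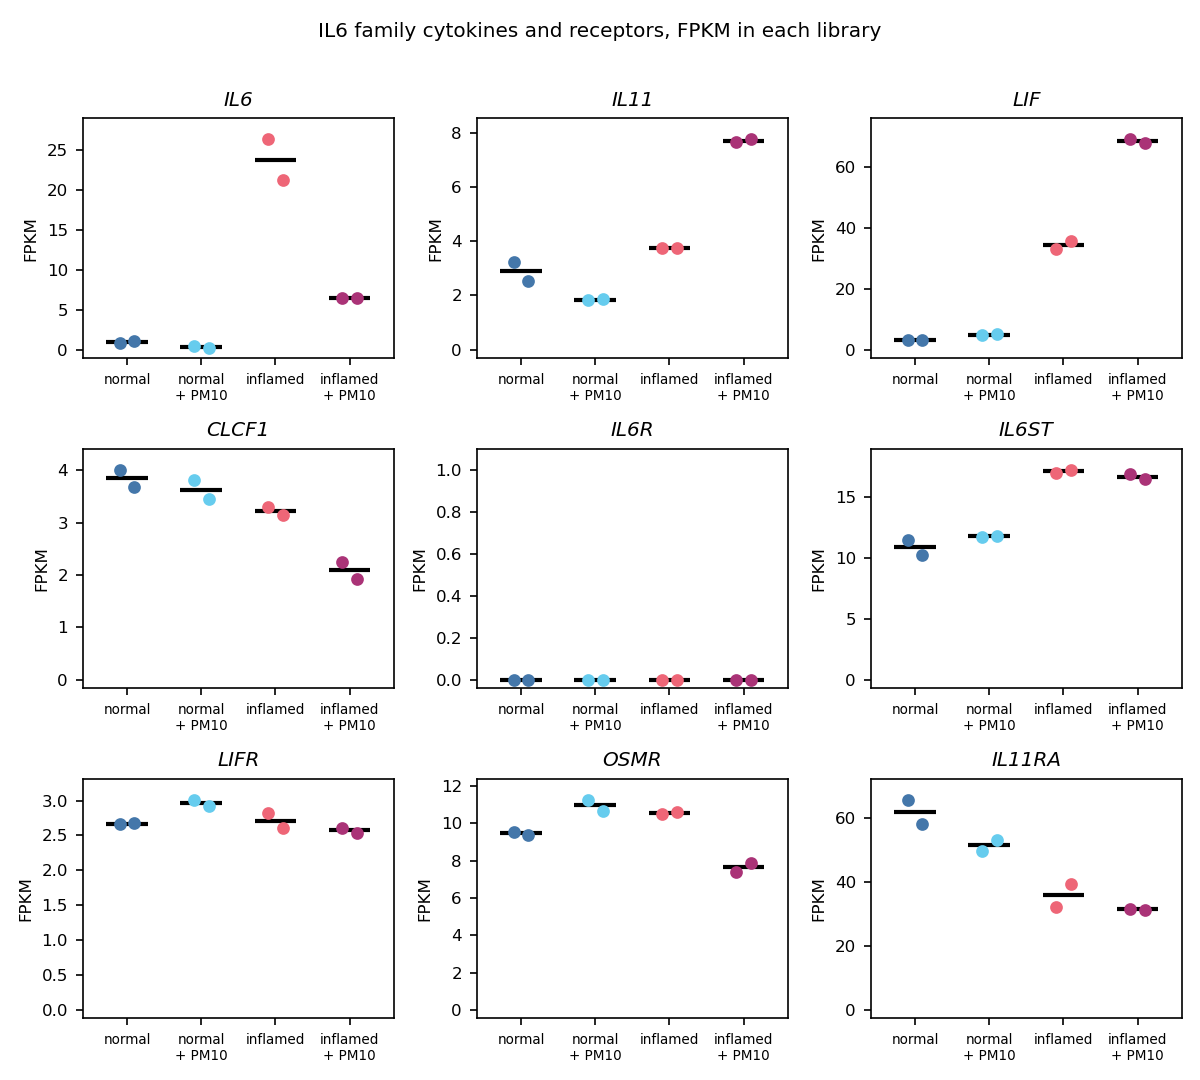
FPKM (vertical axes, each from 0) of the 9 genes in the 8 libraries, with points for libraries and a line for the mean of each group of 2. IL6 peaked in inflamed hIECs without PM10, at 26.4 and 21.3 FPKM, whereas LIF and IL11 peaked in inflamed hIECs with PM10, and IL6R was at 0 throughout.

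IL6, the founding cytokine of the family and an inducer of the acute phase response, lies at chr7:22725884-22732002 on the plus strand (GRCh38). It was at 0.796 and 1.11 FPKM in normal hIECs, 0.444 and 0.219 with PM10, 26.4 and 21.3 in inflamed hIECs, and 6.45 and 6.51 in inflamed hIECs with PM10. No groups overlapped, and the inflamed libraries without PM10 were the highest. Its mean was 25.1-fold higher in inflamed than in normal hIECs (23.8 ± 3.59 against 0.951 ± 0.22 FPKM, SD, n = 2), a difference of 3.67 ± 0.13 (SE) in log2(FPKM + 1) with an adjusted p of 7.53e-07 (limma, Benjamini-Hochberg adjustment). PM10 lowered the inflamed mean 3.68-fold, to 6.48 ± 0.0376 FPKM, a difference of -1.72 ± 0.13 (adjusted p = 0.000525). Even so, IL6 remained 19.5-fold higher in inflamed than in normal hIECs when PM10 was present in both arms, with a difference of 2.49 (adjusted p = 3.9e-06). These 3 differences kept their call under all 18 alternatives. Exons of STEAP1B overlap those of IL6, and without strand their reads cannot be told apart there. STEAP1B was at 0.929 to 1.26 FPKM in the 4 inflamed libraries and at most 3.01 FPKM in the normal ones, and its part in the values of IL6 was not tested.

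In normal hIECs, PM10 was accompanied by a difference of -0.55 in IL6 (adjusted p = 0.0458), close to the threshold and at FPKM values near the lowest that the files list above 0 (0.164 to 0.228). That call was lost in 12 of 18 alternatives, among them leaving out replicate 2 of normal hIECs (adjusted p = 0.168) or replicate 1 or 2 of normal hIECs with PM10 (0.0969 and 0.19), and leaving out any 1 of the 4 inflamed libraries (0.0552 to 0.0829). The interaction for IL6 was -1.17 (adjusted p = 0.0158), with both PM10 differences negative. It was not called with a pseudocount of 0.1 (-0.54, adjusted p = 0.439) or 0.5 (-0.99, adjusted p = 0.0567), or after rescaling without mitochondrial genes (-0.88, adjusted p = 0.105). Nor was it called without replicate 1 of normal hIECs with PM10 (0.0598), replicate 1 of inflamed hIECs (0.0572) or either inflamed library with PM10 (0.0633 and 0.0618). In ratios of FPKM, PM10 lowered the mean of IL6 2.87-fold in normal and 3.68-fold in inflamed hIECs, so whether the PM10 effect on IL6 differed between them depended on the scale.

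IL11, which acts through IL11RA and gp130 and is known from stromal cells, lies at chr19:55364382-55370463 on the minus strand. It was at 3.24 and 2.54 FPKM in normal hIECs, 1.82 and 1.85 with PM10, 3.76 and 3.75 in inflamed hIECs, and 7.70 and 7.78 in inflamed hIECs with PM10. The order of the groups was inflamed with PM10, inflamed, normal and normal with PM10, with no overlap between them. PM10 raised IL11 2.06-fold in inflamed hIECs, a difference of 0.88 ± 0.09 in log2(FPKM + 1) (adjusted p = 0.00165). In normal hIECs the PM10 difference had the opposite sign, -0.45 ± 0.09 (adjusted p = 0.029), and the interaction was 1.327 ± 0.13 (adjusted p = 0.00246). The interaction was called under all 17 alternatives, with values between 1.20 and 1.64.

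Cytokines alone moved IL11 little, by 0.29 (adjusted p = 0.028), and cytokines in the presence of PM10 raised it 4.21-fold, by 1.62 (adjusted p = 5.41e-06). In normal hIECs, the lower IL11 with PM10 was not called without replicate 1 or 2 of normal hIECs with PM10 (adjusted p = 0.137 and 0.123) or without any 1 of the inflamed libraries (0.0596 to 0.0618). The rise with cytokines alone was not called without replicate 2 of normal hIECs (0.16, adjusted p = 0.0863) or without replicate 1 or 2 of inflamed hIECs (0.0987 and 0.0925).

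LIF, the leukemia inhibitory factor that signals through LIFR and gp130, lies at chr22:30240453-30246759 on the minus strand. It was at 3.03 and 3.16 FPKM in normal hIECs, 4.77 and 4.97 with PM10, 33.2 and 35.7 in inflamed hIECs, and 69.1 and 67.8 in inflamed hIECs with PM10. Each treatment raised it, and no groups overlapped. Cytokines raised the mean 11.1-fold, by 3.11 ± 0.06 in log2(FPKM + 1) (adjusted p = 2.61e-08), and in the presence of PM10 they raised it 14.1-fold, by 3.56 (adjusted p = 1.23e-08). PM10 raised LIF 1.57-fold in normal hIECs, by 0.52 (adjusted p = 0.00409), and 1.99-fold in inflamed hIECs, by 0.97 (adjusted p = 0.000205). With only the groups compared in the limma fit, the rise in normal hIECs was not called (adjusted p = 0.107). The interaction of 0.45 (adjusted p = 0.0238) was not called with a pseudocount of 0.1 (0.35, adjusted p = 0.0598) or when either normal library with PM10 (0.0889 and 0.0694), either inflamed library (0.0904 and 0.0558) or either inflamed library with PM10 (0.0953 and 0.0851) was left out. Exons of LIF overlap those of an antisense RNA that the files name AC004264.1, which was at 0.165 and 0 FPKM in normal hIECs, 0.451 and 0.608 with PM10, 0.990 and 1.57 in inflamed hIECs, and 2.45 and 2.60 in inflamed hIECs with PM10. The libraries carry no strand, so reads of LIF and of this RNA cannot be told apart where they overlap.

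CLCF1, a cytokine that acts through the ciliary neurotrophic factor receptor, lies at chr11:67364168-67374177 on the minus strand. It was at 4.01 and 3.68 FPKM in normal hIECs, 3.81 and 3.45 with PM10, 3.30 and 3.15 in inflamed hIECs, and 2.25 and 1.93 in inflamed hIECs with PM10. The lowest libraries were those with both treatments, and the normal groups with and without PM10 overlapped. CLCF1 fell by 0.45 with PM10 in inflamed hIECs (adjusted p = 0.0147) and by 0.59 with cytokines in the presence of PM10 (adjusted p = 0.00066). Without either inflamed library (adjusted p = 0.0877 and 0.0678) or replicate 2 of inflamed hIECs with PM10 (0.089), the former was not called. The differences with PM10 in normal hIECs (-0.07, 95% confidence interval -0.26 to 0.13) and with cytokines alone (-0.20, -0.40 to 0.0017) did not pass the test. AP003419.1, whose exons overlap those of CLCF1, was at 3.92 FPKM in replicate 2 of normal hIECs with PM10, at 3.71 in replicate 1 of inflamed hIECs, at 0.313 in replicate 1 of normal hIECs and at 0 in the other 5 libraries, so reads may be split between them.

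**Figure D2:**
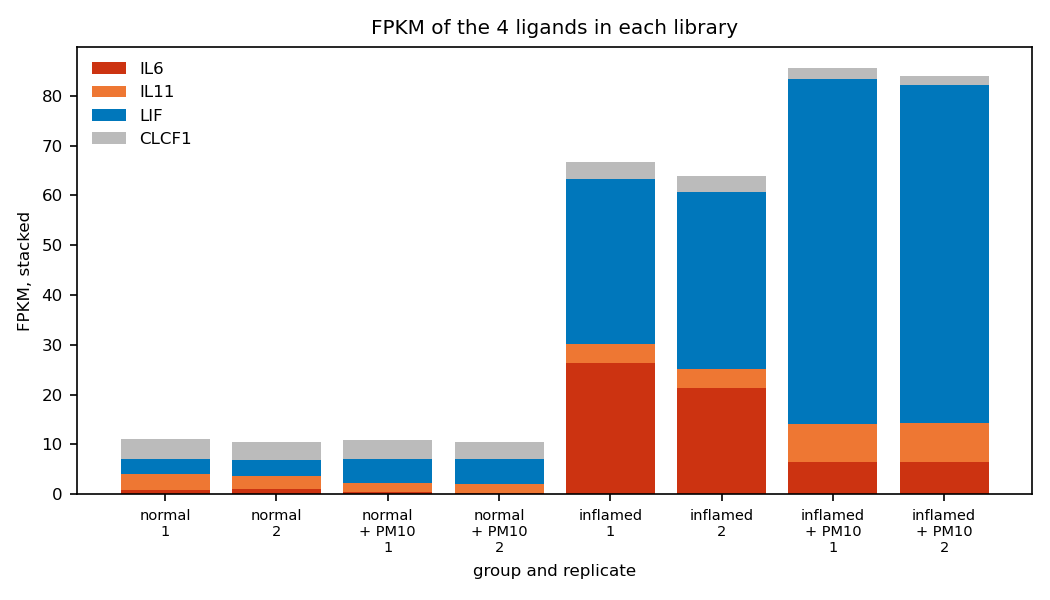
FPKM (vertical axis, from 0) of the 4 ligands, stacked for each of the 8 libraries. IL6 made up 39.6% and 33.4% of the stack in inflamed hIECs and 7.55% and 7.75% in inflamed hIECs with PM10, where LIF made up 80.8% and 80.7%.

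Because FPKM are per length, the ligands were set beside each other within a library. The 4 ligands summed to 11.1 and 10.5 FPKM in normal hIECs, 10.8 and 10.5 with PM10, 66.7 and 63.9 in inflamed hIECs, and 85.5 and 84.0 in inflamed hIECs with PM10. LIF took 27.4% and 30.1% of this sum in normal hIECs, 44% and 47.3% with PM10, 49.8% and 55.8% in inflamed hIECs, and 80.8% and 80.7% in inflamed hIECs with PM10. The share of IL6 was 7.18% and 10.6%, 4.10% and 2.09%, 39.6% and 33.4%, and 7.55% and 7.75% in the same order. The ratio of LIF to IL6 was 1.26 and 1.67 in inflamed hIECs and 10.7 and 10.4 in inflamed hIECs with PM10. In normal hIECs it was 3.81 and 2.85, and with PM10 it was 10.7 and 22.7. The stacked plot of ligands by library shows a larger sum in the inflamed groups. Within these groups, less IL6 and more LIF were present with PM10 than without it. A link between these changes was not tested.

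Among the receptor chains, IL6R (chr1:154405193-154469450, plus strand), the chain that binds IL6 itself, was listed at 0 in all 8 libraries and could not be tested. The lowest values listed above 0 were between 0.164 and 0.228 FPKM, so a level below these was not detectable in these files. IL6ST (chr5:55935095-55995022, minus strand), which encodes gp130, was at 11.5 and 10.3 FPKM in normal hIECs, 11.7 and 11.8 with PM10, 17 and 17.2 in inflamed hIECs, and 16.8 and 16.5 in inflamed hIECs with PM10. All 4 inflamed libraries were above all 4 normal ones. Cytokines raised it 1.57-fold, by 0.61 ± 0.06 (adjusted p = 0.000144), and in the presence of PM10 1.41-fold, by 0.47 (adjusted p = 0.000432). The PM10 differences were 0.11 (95% interval -0.04 to 0.25) in normal and -0.04 (-0.18 to 0.11) in inflamed hIECs, and neither passed the test.

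LIFR (chr5:38474668-38608354, minus strand), the partner of gp130 for LIF, was at 2.67 and 2.68 FPKM in normal hIECs, 3.01 and 2.93 with PM10, 2.82 and 2.60 in inflamed hIECs, and 2.61 and 2.54 in inflamed hIECs with PM10. No comparison called it, and the range over the 8 libraries was 0.18 on the log2(FPKM + 1) scale against 4.12 for LIF. Its interval was -0.15 to 0.18 for cytokines without PM10 and -0.22 to 0.11 for PM10 in inflamed hIECs. LIFR-AS1, whose exons overlap those of LIFR, did not exceed 0.424 FPKM in any library.

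OSMR (chr5:38845858-38945596, plus strand), the receptor chain for oncostatin M, was at 9.55 and 9.38 FPKM in normal hIECs, 11.3 and 10.7 with PM10, 10.5 and 10.6 in inflamed hIECs, and 7.39 and 7.90 in inflamed hIECs with PM10. The libraries with both treatments were the lowest, and those with either treatment alone lay above the normal ones. PM10 lowered OSMR 1.38-fold in inflamed hIECs, by 0.42 ± 0.06 (adjusted p = 0.00505), against a difference of 0.19 in normal hIECs that did not pass the test (adjusted p = 0.0816). The interaction was -0.61 ± 0.08 (adjusted p = 0.0092) and was called under all 17 alternatives. In the presence of PM10, cytokines lowered OSMR by 0.47 (adjusted p = 0.000314), whereas without PM10 the difference was 0.14 (adjusted p = 0.071). When FPKM were rescaled without mitochondrial genes, PM10 in normal hIECs (0.24, adjusted p = 0.0442) and cytokines without PM10 (0.19, adjusted p = 0.0329) were called as well. RICTOR, whose exons overlap those of OSMR, was at 0.981 to 2.07 FPKM.

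IL11RA (chr9:34652162-34661902, plus strand), the receptor chain that binds IL11, had the highest level per length of the family in normal hIECs. It was at 65.6 and 58.1 FPKM in normal hIECs, 49.7 and 53.0 with PM10, 32.3 and 39.3 in inflamed hIECs, and 31.7 and 31.4 in inflamed hIECs with PM10. All inflamed libraries were below all normal ones. Cytokines lowered it 1.73-fold, by 0.78 ± 0.10 (adjusted p = 0.000412), and 1.63-fold in the presence of PM10, by 0.69 (adjusted p = 0.000593). The PM10 differences of -0.26 in normal (adjusted p = 0.129) and -0.17 in inflamed hIECs (adjusted p = 0.269) did not pass the test. IL11 and its receptor chain thus had opposite directions with cytokines, 1.62 against -0.69 where PM10 was present.

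**Figure D3:**
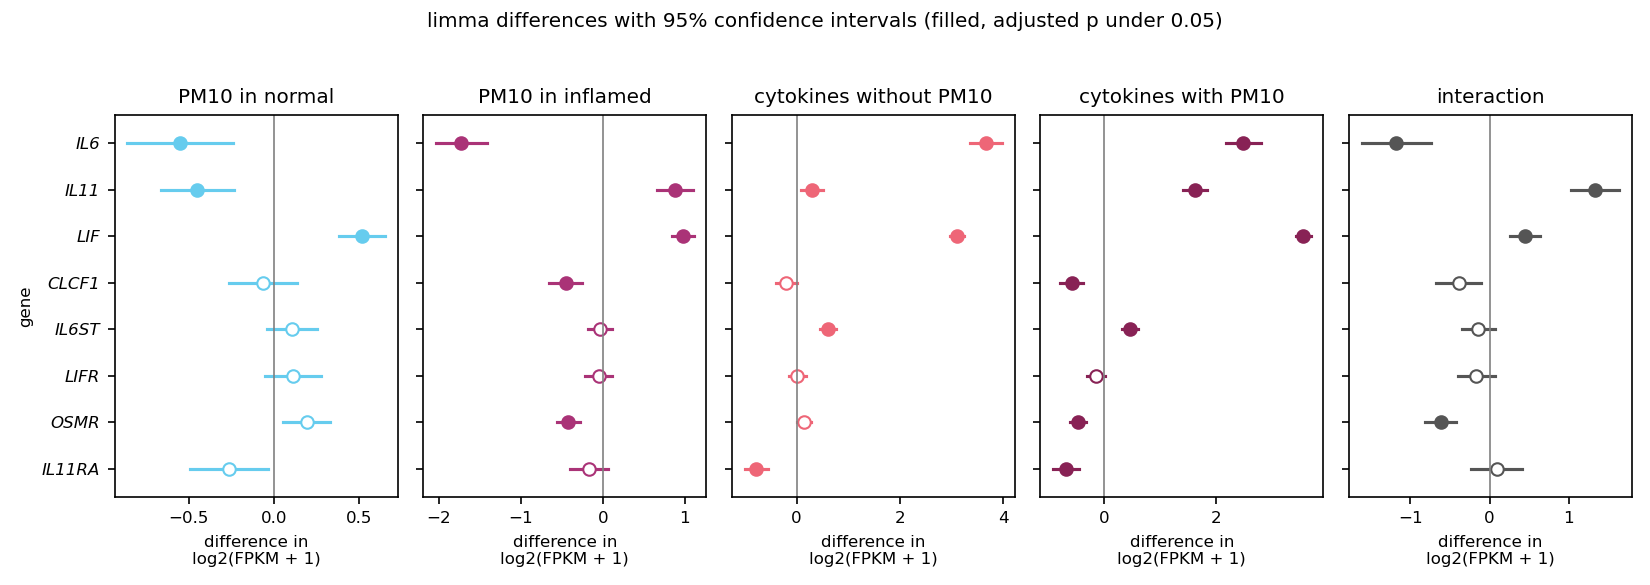
Differences in log2(FPKM + 1) (horizontal axes, scaled separately in each panel) of the 8 tested genes in 5 comparisons, with points for the limma estimate, bars for 95% confidence intervals and filled points for an adjusted p under 0.05. PM10 in inflamed hIECs separates LIF (0.97) and IL11 (0.88) from IL6 (-1.72), CLCF1 (-0.45) and OSMR (-0.42).

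The other ligands of the gp130 family and its relatives were 7 genes, of which OSM, IL27 and IL31 were listed at 0 in every library and 3 were tested. Cytokines without PM10 called 1 of these higher and 1 lower (median difference 0.08), against 56.2% of all genes tested. EBI3, a soluble chain shared by interleukins 27 and 35, was at 0.475 and 0.430 FPKM in normal hIECs, 0.788 and 0.564 with PM10, 4.73 and 5.73 in inflamed hIECs, and 10.2 and 11.4 in inflamed hIECs with PM10. It rose 11.6-fold with cytokines, by 2.10 (adjusted p = 5.22e-06), and 2.06-fold with PM10 in inflamed hIECs, by 0.92 (adjusted p = 0.0027). Its interaction of 0.72 (adjusted p = 0.0406) was lost in 13 of 17 alternatives, leaving out any 1 of the 8 libraries among them (0.0625 to 0.133). CTF1, which encodes cardiotrophin 1, fell with cytokines by 0.75 (adjusted p = 0.000224), from 6.06 and 6.96 to 3.55 and 3.37 FPKM.

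Of the 4 other receptors, IL31RA was at 0 in every library. All 3 tested genes were called with cytokines, with 2 higher and 1 lower (median 0.55), against 56.2% of all genes tested. With PM10, limma called 0 of 3 in either state, against 9.23% of all genes in normal and 15.2% in inflamed hIECs. An unadjusted p under 0.05 was found for 2 in normal and 0 in inflamed hIECs. CNTFR, the receptor chain through which CLCF1 acts, was at 14.2 and 15.5 FPKM in normal hIECs, 11.5 and 12.3 with PM10, 0.983 and 0.988 in inflamed hIECs, and 0.929 and 0.470 in inflamed hIECs with PM10. It was 15.1-fold lower with cytokines, a fall by 3.00 (adjusted p = 1.56e-06). IL27RA rose by 0.55 (adjusted p = 0.000146), and IL12RB1, a chain of the interleukin 12 and 23 receptors, was listed at 0 in the 4 libraries without cytokines and at 1.22 to 1.57 FPKM in the 4 with them.

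Of 11 JAK-STAT transducers, cytokines without PM10 called 4 higher and 1 lower (median 0.18 against -0.03 over all genes). PM10 in inflamed hIECs called 1 higher (median 0.06). Over all genes tested, these comparisons called 56.2% and 15.2%. STAT3, the main transcription factor downstream of gp130, was at 41.5 and 39.0 FPKM in normal hIECs, 47.1 and 47.3 with PM10, 35.0 and 32.6 in inflamed hIECs, and 34.2 and 33.0 in inflamed hIECs with PM10. STAT3 fell by 0.24 with cytokines (adjusted p = 0.00786, but 0.058 without replicate 2 of inflamed hIECs) and by 0.48 in the presence of PM10 (adjusted p = 0.000211). JAK2 rose by 0.71 (adjusted p = 0.000583) and STAT5A by 0.98 (adjusted p = 0.00497) with cytokines, whereas JAK1 was at 22.9 to 28.4 FPKM and was not called in any comparison. PTPN11, the phosphatase SHP2 that links gp130 to the MAPK pathway, rose by 0.53 with cytokines (adjusted p = 0.00226) and by 0.38 with PM10 in inflamed hIECs (adjusted p = 0.0352), the latter not called without any 1 of the 6 libraries that received PM10 or cytokines (0.0625 to 0.15).

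Of 11 negative regulators, 10 were tested, and cytokines without PM10 called 3 higher (SOCS1, PTPN2 and PTPN1) and 4 lower (SOCS3, SOCS5, CISH and PIAS3), with a median of -0.01. PTPN1, CISH and PIAS3 are named after their values were seen. Over all genes tested, 56.2% were called with cytokines without PM10 and 15.2% with PM10 in inflamed hIECs. SOCS1, the inhibitor of JAK kinases induced by IFNγ, was at 1.74 and 1.79 FPKM in normal hIECs and 6.64 and 6.62 in inflamed hIECs, and it rose by 1.46 (adjusted p = 9.73e-06). SOCS3, the inhibitor that binds gp130, was at 17.8 and 20.02 FPKM in normal hIECs, 18.4 and 18.5 with PM10, 9.91 and 10.4 in inflamed hIECs, and 7.06 and 7.37 in inflamed hIECs with PM10. It fell by 0.84 with cytokines (adjusted p = 4.41e-05) and by 0.44 with PM10 in inflamed hIECs (adjusted p = 0.0072). SOCS2, an inhibitor of growth hormone and related signals, was at 5.19 and 6.18 FPKM in inflamed hIECs and at 2.69 and 2.33 with PM10, a fall by 0.93 (adjusted p = 0.00616). SOCS2 and SOCS3 were the 2 members of this list that PM10 called in inflamed hIECs (median -0.04), and the SOCS3 call was lost without replicate 2 of inflamed hIECs (0.0567) or replicate 1 of inflamed hIECs with PM10 (0.0545).

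The 4 sheddases of IL6R and their chaperones were all tested, and cytokines called 2 higher and 1 lower (median 0.22). The shares over all genes tested were 56.2% with cytokines without PM10 and 15.2% with PM10 in inflamed hIECs. RHBDF2, a chaperone of the protease ADAM17, was at 0.370 and 0.559 FPKM in normal hIECs, 0.665 and 0.750 with PM10, 6.68 and 7.45 in inflamed hIECs, and 12 and 9.81 in inflamed hIECs with PM10, and it rose 15.2-fold with cytokines, by 2.46 (adjusted p = 2.59e-06). The rise of RHBDF2 with PM10 in inflamed hIECs, by 0.56 (adjusted p = 0.0193), was not called without either inflamed library (0.112 and 0.0648) or replicate 1 of inflamed hIECs with PM10 (0.11), and it was the single call of this list there (median 0.16). ADAM17 itself, at 8.08 to 9.86 FPKM, was not called with cytokines or PM10, while ADAM10 rose by 0.41 (adjusted p = 0.00155). RHBDF1 fell by 0.30 with cytokines (adjusted p = 0.0112), not called without replicate 2 of normal hIECs (0.0517) or replicate 1 of inflamed hIECs (0.0757).

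Of 11 regulators of IL6 transcription or mRNA decay, 10 were tested. Cytokines without PM10 called 7 higher and 2 lower (median 0.61), against 56.2% of all genes tested. PM10 in inflamed hIECs called 4 lower (median -0.07), against 15.2% of all genes called either way. None was called higher there by limma, and 0 of the 10 were higher at an unadjusted p under 0.05. NFKBIZ encodes IκBζ, a nuclear cofactor that NF-κB needs at the IL6 promoter. It was at 4.78 and 4.44 FPKM in normal hIECs, 5.03 and 4.80 with PM10, 13.8 and 13.5 in inflamed hIECs, and 8.64 and 9.18 in inflamed hIECs with PM10. NFKBIZ rose by 1.38 with cytokines (adjusted p = 2.66e-06) and fell by 0.56 with PM10 in inflamed hIECs (adjusted p = 0.00223), with an interaction of -0.64 (adjusted p = 0.0104) that was not called without replicate 1 of normal hIECs with PM10 (0.0544), of inflamed hIECs (0.0555) or of inflamed hIECs with PM10 (0.0514). CEBPB, a C/EBP factor that acts on IL6, rose by 1.01 with cytokines (adjusted p = 3.29e-05), from 5.70 and 6.59 to 13.1 and 13.6 FPKM, and was at 10.5 and 10.1 FPKM with PM10 in inflamed hIECs, a fall by 0.34 (adjusted p = 0.0263). NFKB1 rose by 1.84 with cytokines (adjusted p = 4.64e-07) and was at 22.0 and 22.3 FPKM in inflamed hIECs and 22.1 and 22.2 with PM10.

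The genes whose products shorten the life of IL6 mRNA moved in both directions. ZC3H12A, which encodes the RNase regnase-1, rose by 1.75 with cytokines (adjusted p = 1.32e-06), from 1.83 and 1.94 to 8.20 and 9.14 FPKM. Its interaction was -0.51 (adjusted p = 0.0299), which was not called without any 1 of the 6 libraries that received PM10 or cytokines (0.0586 to 0.104). ZFP36, which encodes the AU-rich element binding protein tristetraprolin, was at 12.6 and 18.6 FPKM in normal hIECs, 16.2 and 16.5 with PM10, 7.33 and 7.68 in inflamed hIECs, and 4.61 and 4.25 in inflamed hIECs with PM10. ZFP36 fell by 0.94 with cytokines (adjusted p = 0.00137) and by 0.65 with PM10 in inflamed hIECs (adjusted p = 0.0297). The PM10 falls of CEBPB and ZFP36 were not called without any 1 of the 4 inflamed libraries (0.0977 to 0.137), nor was that of ZFP36 without either normal library with PM10 (0.0552 and 0.0553). The other gene called lower was ZFP36L2, which fell by 0.44 (adjusted p = 0.0231) and is named after its value was seen.

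Of 20 STAT3 targets and acute phase genes, 8 were listed at 0 in every library, among them CRP, HP and the fibrinogen genes FGA, FGB and FGG, and 11 were tested. Cytokines without PM10 called 6 higher and 4 lower (median 0.36), against 56.2% of all genes tested. PM10 in inflamed hIECs called 3 higher and 5 lower (median -0.19), against 15.2% of all genes. SAA1, a serum amyloid A gene of the acute phase response, was listed at 0 in the 4 libraries without cytokines, at 4.86 and 6.59 FPKM in inflamed hIECs, and at 21.3 and 21.0 in inflamed hIECs with PM10. SAA2, its close paralog, was at 0 in the same 4 libraries, at 1.45 and 1.77 FPKM in inflamed hIECs, and at 6.92 and 7.75 with PM10. PM10 in inflamed hIECs raised them 3.7-fold and 4.55-fold, by 1.73 (adjusted p = 0.000334) and 1.67 (adjusted p = 0.000205). Reads of these near-identical genes can be split between them, so their separate levels are uncertain. ICAM1, an adhesion molecule, rose by 4.66 with cytokines (adjusted p = 5.51e-09), from 2.17 and 2.04 to 77.3 and 78.2 FPKM, and by 0.47 with PM10 in inflamed hIECs (adjusted p = 0.00379).

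Other genes of the list fell in 1 or both of these comparisons. A2M, the protease inhibitor alpha-2-macroglobulin, was at 206 and 182 FPKM in normal hIECs, 142 and 140 with PM10, 73.6 and 71.7 in inflamed hIECs, and 46.5 and 47.6 in inflamed hIECs with PM10, and it fell by 1.40 with cytokines (adjusted p = 2.07e-06) and by 0.62 with PM10 in inflamed hIECs (adjusted p = 0.00144). SERPINA3, which encodes alpha-1-antichymotrypsin, was at 1.85 and 1.63 FPKM in normal hIECs, 0.750 and 0.929 with PM10, and listed at 0 in the 4 libraries with cytokines, so that its difference with PM10 in inflamed hIECs was 0. Named after their values were seen, TIMP1 fell by 0.55 (adjusted p = 0.00225), PIM1 by 0.40 (adjusted p = 0.00497), JUNB by 0.32 (adjusted p = 0.0141) and BCL3 by 0.47 (adjusted p = 0.0341) with PM10 in inflamed hIECs. With cytokines without PM10, TIMP1 fell by 0.78 (adjusted p = 4.18e-05) and PIM1 by 0.16 (adjusted p = 0.039), JUNB rose by 0.36 (adjusted p = 0.0017), and BCL3 had a difference of 0.095 (adjusted p = 0.504).

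**Figure D4:**
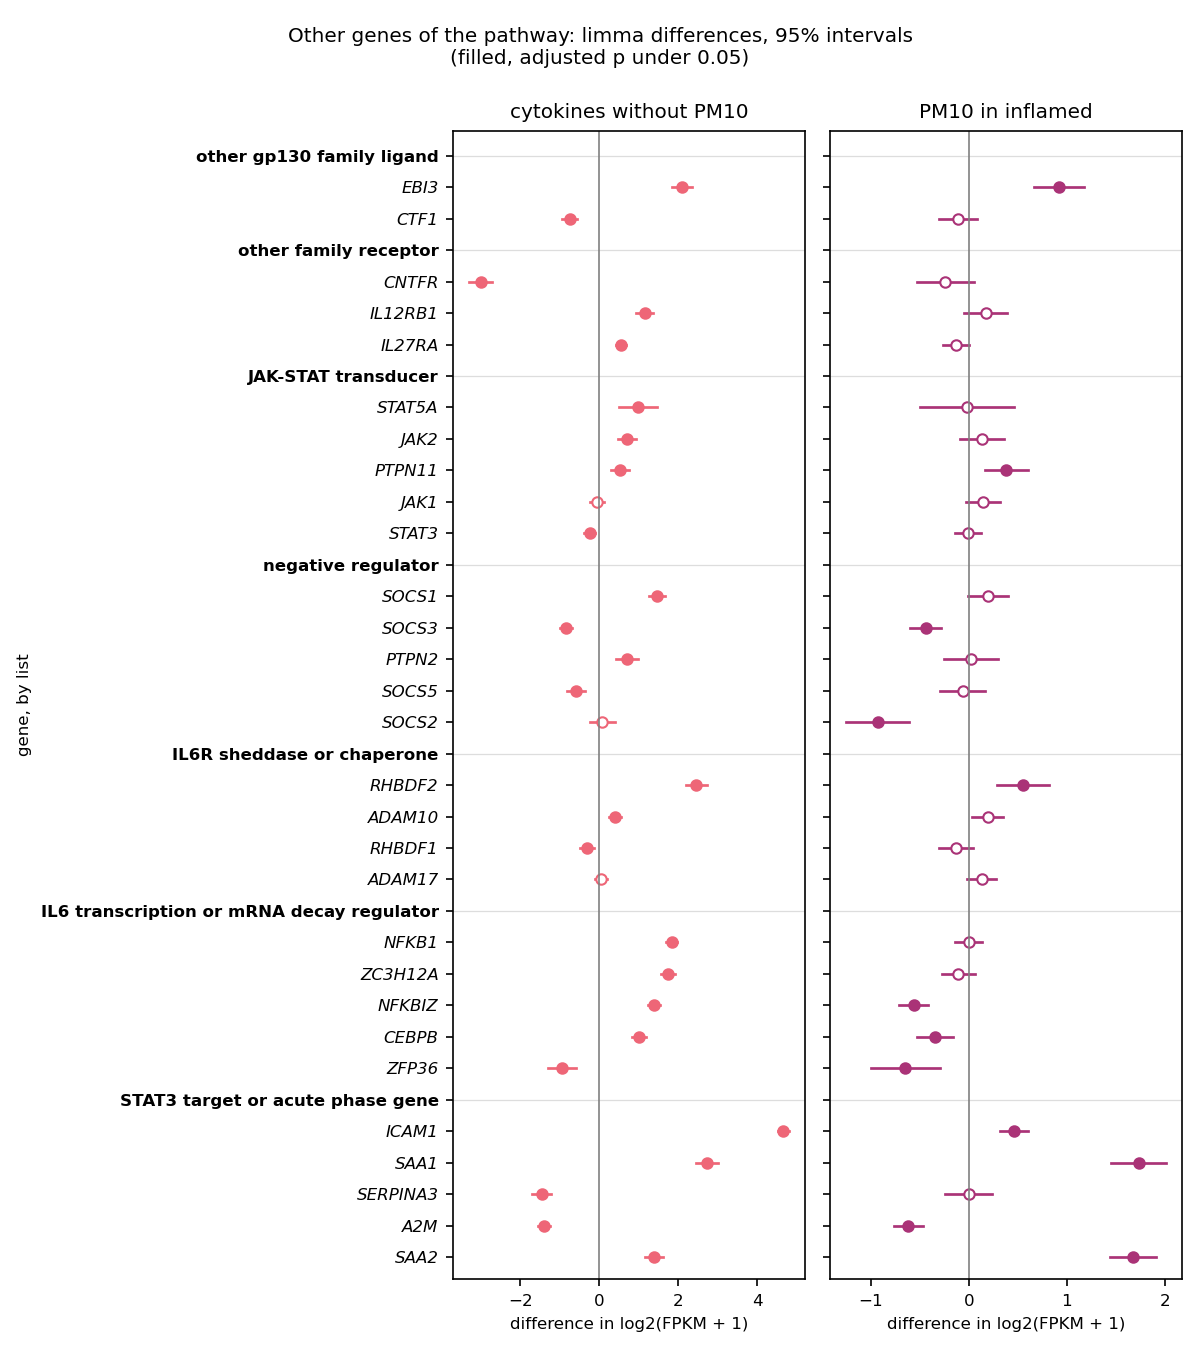
Differences in log2(FPKM + 1) (horizontal axes, scaled separately) of genes named from the 7 pathway lists for cytokines without PM10 (left) and PM10 in inflamed hIECs (right), with points for the limma estimate, bars for 95% confidence intervals and filled points for an adjusted p under 0.05. With PM10, NFKBIZ (-0.56), CEBPB (-0.34) and ZFP36 (-0.65) lie left of 0, and EBI3 (0.92), SAA1 (1.73) and SAA2 (1.67) lie to the right.

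For each member, the protein-coding genes with the most similar pattern were found by the Euclidean distance over the 8 libraries, after each gene was centred on its mean log2(FPKM + 1). Nearest to IL6 were PLAAT4 (distance 1.12), BDKRB1 (1.17), the bradykinin B1 receptor, and HLA-DRA (1.37), a chain of MHC class II. PLAAT4 had means of 2.27 and 2.10 FPKM in normal hIECs without and with PM10, and of 33.8 and 19.8 FPKM in inflamed hIECs without and with it. Nearest to IL11 were the nucleoside transporter gene SLC29A1 (0.412), TMEM158 (0.425) and TMEM200A (0.459). SLC29A1 had means of 11.5, 8.03, 13.7 and 21.6 FPKM in the same order. Nearest to LIF were the chemokine gene CXCL6 (0.664), IFIT3 (0.673) and ANGPTL4 (0.678), and CXCL6 had means of 0.358, 0.299, 7.13 and 17.2 FPKM. The distances for IL6 and LIF are set against ranges of 4.49 and 4.12 over the 8 libraries and that for IL11 against 1.64. Among the receptors, the nearest genes were MAN1A1 for IL6ST (0.0806) and VPS13C for OSMR (0.163). ZNF300 was nearest to CLCF1 (0.141) and CTDSP2 to LIFR (0.0864).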

How the data were processed

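RNA-seq of 2D hIECs covered 4 groups of 2 libraries, poly-A selected and without strand information. Reads were trimmed with Cutadapt and Sickle and aligned to GRCh38 with HISAT2, and the authors deposited FPKM values estimated with StringTie for 60558 genes. The annotation release is not given in the sources used here; 99.5% of the gene IDs were in GENCODE 44, which gave the positions. No counts were used, and depth is unknown beyond the lowest listed values. The files held 16547 to 18926 genes above 0 per library.

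Values were compared as log2(FPKM + 1), which understates changes of low genes. limma 3.58.1 (R 4.3.3), with a trend, was run on the 8 libraries together for the 14206 genes that reached 1 FPKM in 2 or more libraries. Benjamini-Hochberg adjustment was done over these genes within each of 5 comparisons, and the threshold was an adjusted p of 0.05. The members and gene lists were chosen with earlier results of these data known. From each list, genes with a group mean of at least 1 FPKM were named, up to 4 by their difference with cytokines without PM10 and up to 2 by that with PM10 in inflamed hIECs, with JAK1, JAK2, STAT3 and SOCS3 always named. Some genes that this rule names are not reported here. The fit was tested on simulated data. Alternatives covered the pseudocount, filters, scaling, the trend, the groups fitted, a replicate block and each library left out. Tables and plots used Python 3.11.15, pandas 2.3.3 and matplotlib 3.10.9.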

Additional observations from a re-analysis of the deposited data

Results flagged for a closer look

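The difference with PM10 in inflamed hIECs departed from that in normal hIECs, by the interaction test over all genes, for 4 members and 9 other genes of the pathway lists, of which 5 were named by the rule. That test called 6.6% of all genes tested. Among the members, the interaction was -1.17 for IL6, 1.327 for IL11, 0.45 for LIF and -0.61 for OSMR, in log2(FPKM + 1). IL11 and OSMR had PM10 differences of opposite sign in the normal and inflamed states, -0.45 against 0.88 and 0.19 against -0.42. IL6 (-0.55 against -1.72) and LIF (0.52 against 0.97) had the same sign in both. The interaction call held under all 17 alternatives for IL11 and OSMR. For IL6 and for LIF it was lost in 7 of 17, and for IL6 it depended on the scale. Among the 5 other genes named by the rule, the interaction was 0.72 for EBI3, -0.64 for NFKBIZ, -0.51 for ZC3H12A, 1.73 for SAA1 and 1.67 for SAA2. The call was lost in 13 of 17 alternatives for EBI3, 6 for ZC3H12A and 3 for NFKBIZ, and held under all 17 for SAA1 and SAA2. SAA1 and SAA2 were listed at 0 in all 4 libraries without cytokines, so their interaction equals their difference with PM10 in inflamed hIECs. The other 4, named after their values were seen, were TYK2 (-0.49), ZFP36L1 (-0.35), JUNB (-0.44) and MCL1 (-0.32). With 2 libraries in each group, no library was examined as an outlier.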

How the results depend on the processing

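Of 712 comparisons of a member's difference with an alternative, 667 kept their direction and call, 41 lost the call, 2 gained it and 2 changed sign. The changes of sign were of values that no fit called, and both came without replicate 1 of inflamed hIECs, where LIFR with cytokines without PM10 was -0.027 (highest 0.057 with another library left out) and the IL11RA interaction was -0.05 (highest 0.228). When the groups compared were fitted alone, PM10 in normal hIECs called 23 genes and 0 members by limma (1311 and 3 with all groups), and 5 members had an unadjusted p under 0.05, with fewer libraries in the fit. A pseudocount of 0.1 left 2 of the 4 members called in the interaction, and the cause was not tested. With each library left out in turn, the lone library of its group was assumed to vary like the others, and PM10 in normal hIECs called between 194 and 2627 genes and 1 to 3 members, PM10 in inflamed hIECs between 675 and 2992 genes (2165 with all libraries), and the interaction between 263 and 1266 genes (937) and 2 to 4 members. For PM10 in normal hIECs, the count was 2627 without replicate 1 of normal hIECs, 725 without replicate 2, 194 and 221 without replicates 1 and 2 of normal hIECs with PM10, and 636 to 687 without any 1 inflamed library. For PM10 in inflamed hIECs it was 675 to 742 without any 1 inflamed library, and for the interaction it was 263 to 330 without any 1 library that received PM10 or cytokines. With a replicate block, the calls numbered 1051 for PM10 in normal hIECs, 7957 and 9264 for cytokines without and with PM10, 1966 for PM10 in inflamed hIECs and 762 for the interaction. Deviations of same-numbered libraries correlated between -0.002 and 0.079. With so few libraries, such values cannot settle whether same-numbered libraries shared a culture or a batch. Of all genes called with PM10 in normal hIECs, 59.7% were higher, against 42.9% with median centring, 49.8% with quantile normalization and 75.4% after rescaling without mitochondrial genes. For the interaction, 32.0% were higher, against 45.7%, 46.6% and 27.1%, and for PM10 in inflamed hIECs 40.8%, against 50.8% with quantile normalization. Rescaling without mitochondrial genes moved the median over all genes to 0.104 for PM10 in normal hIECs. No member turned its direction under these scalings.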

Other observations

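Markers within the lists of cell types did not move one way. Of 4 epithelial markers tested, cytokines without PM10 called 1 higher, LGR5, and 2 lower, KRT8 (-0.82) and KRT18 (-0.99). Of 12 mesenchymal markers, cytokines without PM10 called 5 higher and 5 lower, and PM10 in inflamed hIECs called 1 higher, LUM, and 7 lower, with the largest fall of the 12 in TWIST1 (-0.81). Over all genes tested, cytokines without PM10 called 56.2% and PM10 in inflamed hIECs 15.2%. The markers named here were chosen after their values were seen. LGR5, a stem cell marker of the intestine that other tissues also express, was at 2.63 and 2.01 FPKM in normal hIECs, 2.33 and 2.31 with PM10, 5.68 and 5.26 in inflamed hIECs, and 8.28 and 7.92 in inflamed hIECs with PM10. TWIST1, a mesenchymal transcription factor, was at 21.8 and 23.7 FPKM in normal hIECs, 22.0 and 20.9 with PM10, 13.7 and 14.6 in inflamed hIECs, and 8.03 and 7.29 in inflamed hIECs with PM10. In the same order, LUM, the gene of the matrix proteoglycan lumican, was at 37.9 and 39.9, 45.2 and 44.3, 98.1 and 97.1, and 141 and 139 FPKM. STEAP1B, whose exons overlap those of IL6 in GENCODE 44, was at 3.01 and 2.45, 2.14 and 1.84, 0.929 and 1.26, and 1.08 and 0.971 FPKM.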
